A study of Mus musculus with 3 samples.

Results

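Genes of the circadian clock were followed through RNA sequencing of mouse calf muscle, 10 of the 42225 gene symbols in the deposited tables. They were chosen by gene symbol: the activators Arntl, Clock and Npas2, the repressors Per1, Per2, Per3 and Cry1, the nuclear receptors Nr1d1 and Nr1d2, and the output factor Dbp. All 10 were found, each as 1 row per table, and all 10 had a mean of at least 1 CPM (each gene's count scaled to a common library size) over the libraries, as had 12966 genes in all. The muscle was gastrocnemius and plantaris of male mice, and RNA of the mice of a group was pooled, so that each group is 1 library. The young library holds 3 mice aged 24 weeks, whose strain is labelled C57BL/7J and whose diet is not given in the labels. Both aged libraries hold 6 C57BL/6J mice each, aged 87 weeks, which were on their diets for 12 weeks from the age of 75 weeks. One diet, the control, was deprived of eicosapentaenoic acid (EPA), a fatty acid of fish oil, and the other held 1 wt% EPA. These libraries are called EPA-deprived and EPA-fed below. No group has a second library, so differences below are sizes between 3 pooled libraries, with no test, and without error between mice or preparations.

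As background, the clock is a loop of transcription factors that runs in nearly every cell. The proteins of Arntl (BMAL1) and Clock, or Npas2 in its place, bind E-box sequences together and switch on the Per, Cry, Nr1d and Dbp genes. PER and CRY proteins then shut off that activator, REV-ERB proteins (from Nr1d1 and Nr1d2) repress Arntl, Npas2 and other genes at ROR elements, and DBP activates genes at D-box sequences. Transcripts of the loop rise and fall each day in skeletal muscle, with Arntl high at the hours when Dbp is low. The hour at which the muscles were taken is not given in the sources used here. A difference in hour and a difference in age or diet thus cannot be told apart. In comparisons with young, age also cannot be told apart from the labelled strain, the diet or the number of mice pooled.

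The promoter letters are shown because they hold the elements through which the loop is known to act. RefSeq windows on GRCm38.p6, from 250 bases before to 50 bases after a start site, were found for 9 of the 10 genes (all but Per2). Capitals mark the E-box CACGTG in Per1 (chr11:69098699-69098947, plus strand) and in Cry1 (chr10:85185065-85185304, minus strand), the D-box TTATGTAA in Per3 (chr4:151044666-151044915, minus strand), and the ROR element TAGGTCA in a stretch of the first exon of Arntl (chr7:113207529-113207558, plus strand). Each is written 5′ to 3′ on the strand of the gene. The first 3 stretches lie upstream of the start site of their window and outside annotated exons. For Per1 that is an inner start site, at 69098949. Its stretch thus lies within the annotated gene, which starts at 69095217.
Per1: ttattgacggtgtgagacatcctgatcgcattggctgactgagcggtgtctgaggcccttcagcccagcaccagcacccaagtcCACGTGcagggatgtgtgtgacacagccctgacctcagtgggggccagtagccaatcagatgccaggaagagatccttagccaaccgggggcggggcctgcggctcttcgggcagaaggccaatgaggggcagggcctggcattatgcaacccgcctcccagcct
Cry1: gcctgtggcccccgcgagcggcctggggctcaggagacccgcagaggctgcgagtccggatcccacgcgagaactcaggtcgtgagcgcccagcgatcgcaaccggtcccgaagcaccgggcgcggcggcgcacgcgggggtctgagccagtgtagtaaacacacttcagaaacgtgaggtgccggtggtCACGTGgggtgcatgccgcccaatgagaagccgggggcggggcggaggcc
Per3: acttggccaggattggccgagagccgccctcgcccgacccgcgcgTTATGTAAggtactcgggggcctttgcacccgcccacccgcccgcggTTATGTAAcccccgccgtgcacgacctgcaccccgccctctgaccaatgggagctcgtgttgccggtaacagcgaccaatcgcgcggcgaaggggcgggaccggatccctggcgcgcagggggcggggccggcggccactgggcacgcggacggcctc
Arntl: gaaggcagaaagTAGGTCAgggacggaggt

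Both strands were searched, in all windows of a gene. CACGTG was found in 2 of the 9 genes (Per1 and Cry1) and in 8.09% of 27025 genes with a window. TTATGTAA or TTACGTAA was found in 1 of the 9 (Per3, with 2 matches) and in 1.23% of genes, and TAGGTCA in 1 of the 9 (Arntl) and in 2.97% of genes. These matches describe letters in short windows only.

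The activator Arntl was lower in both aged libraries, while Per1, Per2, Per3 and Dbp were higher in both, by 1.18-fold to 1.79-fold in recovered counts per library total. Npas2 was lowest in the EPA-fed library, and Nr1d1 was lower in the EPA-deprived library than in the other two. Nr1d1, Clock, Cry1 and Nr1d2 each differed by at most 1.26-fold across all 3 libraries, and Clock and Cry1 were lowest in EPA-fed. Of 10 clock genes, 2 (Per2 and Dbp) were at least 1.5-fold higher in EPA-deprived than in young, where 2.69% of all compared genes were, and 1 (Arntl) was at least 1.5-fold lower, where 2.55% of all genes were. In EPA-fed against EPA-deprived 0 of 10 were at least 1.5-fold higher (1.69% of all genes) and 1 (Npas2) was at least 1.5-fold lower (1.91%). In EPA-fed against young 1 (Dbp) was at least 1.5-fold higher (2.4% of all genes) and 2 (Arntl and Npas2) at least 1.5-fold lower (2.96%). In recovered counts scaled by library total Per2 also passed 1.5-fold there, so that 2 of 10 were higher. No clock gene reached 2-fold on the scale of log2(CPM + 1) in any of the 3 comparisons, while 1.74%, 1.33% and 1.6% of all genes did. In recovered counts Npas2 was more than 2-fold lower in EPA-fed than in either other library. The median log2 change of the 10 was 0.07 in EPA-deprived against young, -0.11 in EPA-fed against EPA-deprived and 0.00 in EPA-fed against young, beside -0.01, -0.03 and -0.04 for all compared genes. Members moved both ways, so these medians hide the single genes. The 3 comparisons share libraries pairwise, and their values are set side by side only.

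**Figure D1:**
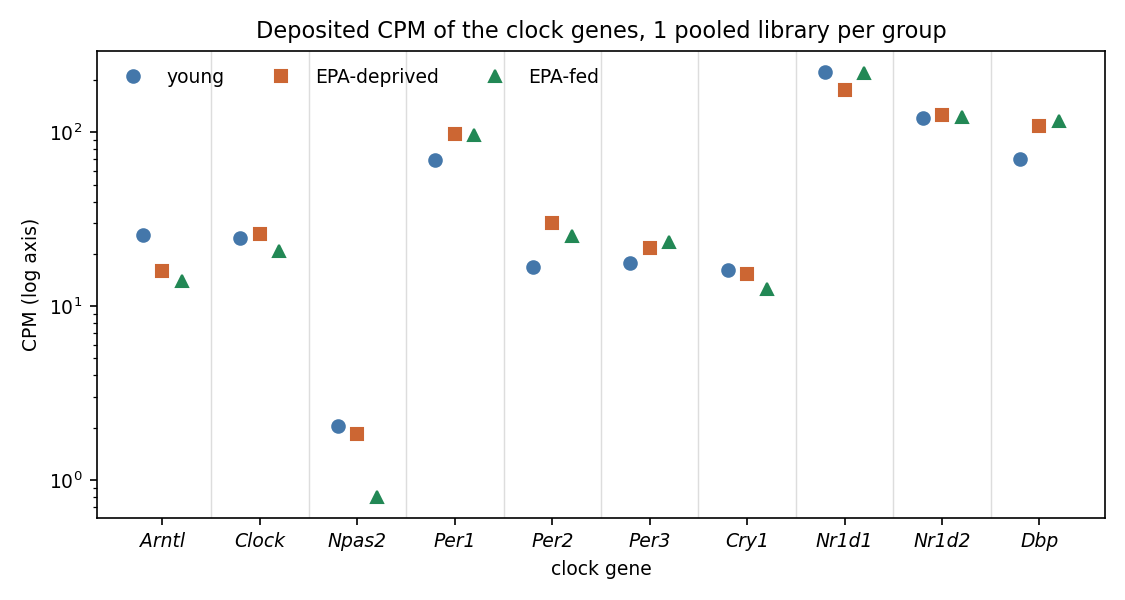
Deposited CPM (log axis) of each clock gene in the young, EPA-deprived and EPA-fed libraries, 1 point per pooled library and no error bars. Arntl sits highest in young at 25.5 CPM, while Per1, Per2, Per3 and Dbp sit lowest in young.

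Arntl encodes BMAL1, the partner without which the activator does not form (ENSMUSG00000055116, GRCm38 chromosome 7, 113207465 to 113314126). It stood at 25.5 CPM in young, 15.9 in EPA-deprived and 14.0 in EPA-fed. Both aged libraries were low and lay close to each other. The log2 change of CPM + 1 was -0.65 in EPA-deprived and -0.82 in EPA-fed against young. The log2 ratio of recovered counts, scaled by the total of each library, was -0.68 (95% counting interval -0.80 to -0.56) in EPA-deprived and -0.79 (-0.91 to -0.66) in EPA-fed against young. Between both aged libraries it was -0.11 (-0.25 to 0.03), a difference that was not detectable at this depth. Such intervals cover counting error only, and compare libraries, not conditions.

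Clock encodes the usual partner of BMAL1 (chromosome 5, 76209868 to 76304792). It stood at 24.7 CPM in young, 25.9 in EPA-deprived and 20.7 in EPA-fed, so it was not lower with Arntl in the EPA-deprived library. Its log2 count ratio was 0.03 (-0.08 to 0.14) in EPA-deprived against young and -0.27 (-0.39 to -0.16) in EPA-fed against EPA-deprived. Recovered counts of Clock per count of Arntl were 0.992 in young, 1.62 in EPA-deprived and 1.45 in EPA-fed.

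Npas2, a relative of Clock that can take its place (chromosome 1, 39193731 to 39363236), was the scarcest of the 10. It stood at 2.05 CPM in young, 1.84 in EPA-deprived and 0.801 in EPA-fed, from 118, 104 and 46 recovered counts. The EPA-fed library alone was low. Its log2 count ratio in EPA-fed against EPA-deprived was -1.13 (-1.67 to -0.62), whereas the log2 change of CPM + 1 was -0.66, because the added 1 CPM shrinks changes of scarce genes. In recovered counts Npas2 was 2.20-fold (1.54 to 3.18) higher in EPA-deprived than in EPA-fed. It was 2.50-fold (1.77 to 3.60) higher in young than in EPA-fed. In EPA-deprived against young the count ratio was -0.19 (-0.58 to 0.20), not detectable at this depth.

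Among the repressors, Per1 (chromosome 11, 69095217 to 69109960), a period gene that also answers hormones and nerve activity, stood at 69.7 CPM in young, 97.3 in EPA-deprived and 97.0 in EPA-fed. The aged libraries were alike and both high. The log2 count ratio against young was 0.50 (0.45 to 0.56) in EPA-deprived and 0.51 (0.45 to 0.57) in EPA-fed, and between both aged libraries it was 0.01 (-0.05 to 0.06).

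Per2 (chromosome 1, 91415982 to 91459324), whose protein carries CRY into the repressor complex, showed the largest positive change of the 10 in EPA-deprived against young. It stood at 16.9 CPM in young, 30.02 in EPA-deprived and 25.4 in EPA-fed. Young was low, and EPA-fed lay between the other two. The log2 change of CPM + 1 was 0.79 in EPA-deprived and 0.56 in EPA-fed against young, and -0.23 in EPA-fed against EPA-deprived. In recovered counts Per2 was 1.79-fold (1.65 to 1.94) of young in EPA-deprived and 1.59-fold (1.47 to 1.73) in EPA-fed.

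Per3 (chromosome 4, 151003652 to 151044665), the third period gene, stood at 17.7 CPM in young, 21.6 in EPA-deprived and 23.3 in EPA-fed. It was higher in the aged libraries by less than its 2 relatives, at 1.18-fold (1.09 to 1.29) and 1.33-fold (1.22 to 1.44) of young in recovered counts. All 3 period genes thus lay above young in both aged libraries.

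Cry1, a cryptochrome that represses the activator (chromosome 10, 85131700 to 85185064), did not go with the period genes. It stood at 16.1 CPM in young, 15.2 in EPA-deprived and 12.6 in EPA-fed, lowest in EPA-fed. Its log2 count ratio was -0.06 (-0.20 to 0.07) in EPA-deprived against young and -0.27 (-0.42 to -0.13) in EPA-fed against EPA-deprived. Counts of Per2 per count of Cry1 were 1.04 in young, 1.94 in EPA-deprived and 2.09 in EPA-fed.

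**Figure D2:**
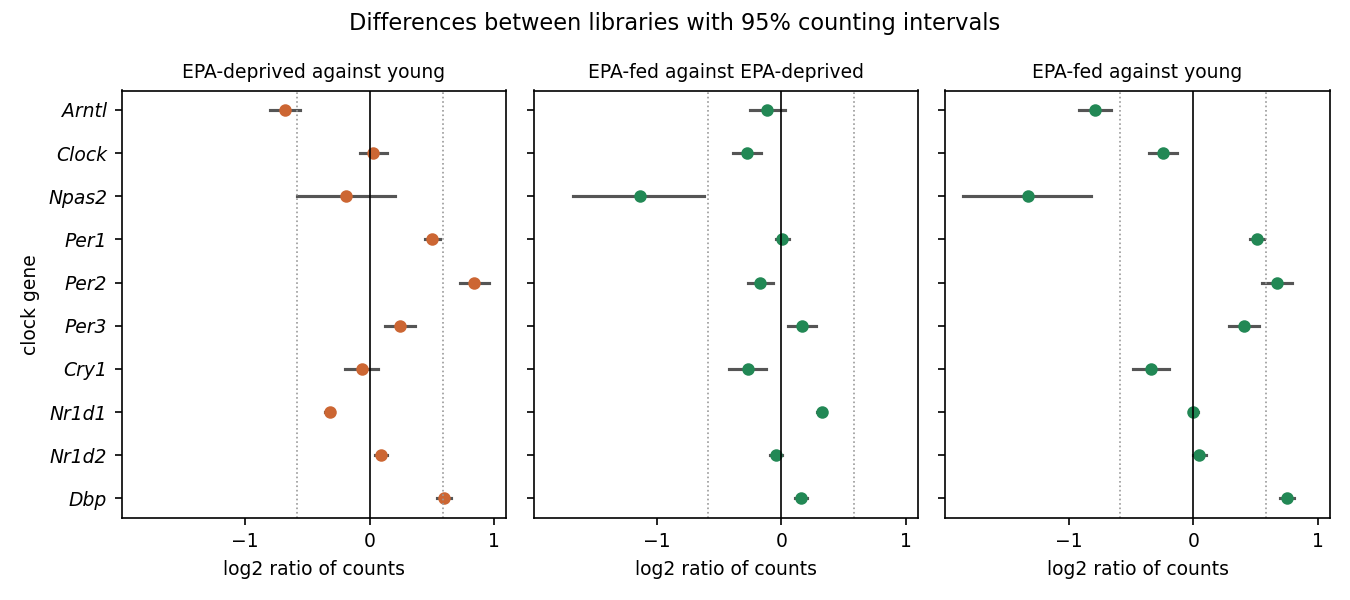
Log2 ratio of recovered counts, scaled by library total, for each clock gene in 3 comparisons, with 95% counting intervals as bars and dotted lines at 1.5-fold. Arntl lies left of the line in both comparisons with young, and Npas2 has the widest bars because it had only 46 to 118 counts.

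The nuclear receptor Nr1d1 encodes REV-ERB alpha, a repressor of Arntl (chromosome 11, 98767932 to 98775333). It stood at 223 CPM in young, 176 in EPA-deprived and 219 in EPA-fed, low in the EPA-deprived library alone. The log2 count ratio was -0.32 (-0.36 to -0.28) in EPA-deprived against young, 0.32 (0.28 to 0.36) in EPA-fed against EPA-deprived and 0.00 (-0.03 to 0.04) in EPA-fed against young. These differences were below 1.5-fold.

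Its relative Nr1d2, which encodes REV-ERB beta (chromosome 14, 18204054 to 18239127), stood at 120.3 CPM in young, 126 in EPA-deprived and 122 in EPA-fed. All 3 libraries lay within 1.06-fold in recovered counts. Counts of Nr1d1 per count of Nr1d2 were 1.85 (1.80 to 1.91) in young, 1.39 (1.35 to 1.44) in EPA-deprived and 1.79 (1.74 to 1.84) in EPA-fed, so both relatives did not move together.

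The output factor Dbp, a D-box activator driven by E-boxes (chromosome 7, 45705088 to 45710203), stood at 70.3 CPM in young, 109 in EPA-deprived and 116 in EPA-fed. Young was low and both aged libraries were high. The log2 change of CPM + 1 against young was 0.63 in EPA-deprived and 0.71 in EPA-fed, and the count ratio was 1.51-fold (1.45 to 1.57) and 1.68-fold (1.62 to 1.75). In EPA-fed against EPA-deprived the log2 count ratio was 0.16 (0.11 to 0.21).

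Exons of 3 of these genes (Dbp, Nr1d1 and Arntl) overlap a gene on the opposite strand, and whether the counting used strand is not given in the sources used here. Dbp shares 539 exonic bases with the sphingosine kinase gene Sphk2, which stood at 27.3, 26.3 and 27.6 CPM in young, EPA-deprived and EPA-fed. Nr1d1 shares 263 with the thyroid hormone receptor gene Thra, which stood at 57.7, 62.6 and 62.3 CPM in the same order. Over the whole gene, Sphk2 was nearly level where Dbp was higher, and Thra was slightly higher where Nr1d1 was lower in EPA-deprived. The part of shared reads in these differences was not tested. Reads in the shared stretches cannot be told apart without strand. Arntl shares 33 exonic bases with a predicted antisense gene.

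Ratios between members of the loop within a library do not depend on the scaling of the libraries. Counts of Dbp per count of Arntl were 2.84 (2.67 to 3.01) in young, 6.85 (6.38 to 7.35) in EPA-deprived and 8.24 (7.66 to 8.88) in EPA-fed. Those of Per1 per count of Arntl were 2.75, 6.24 and 6.78, and those of Per2 per count of Arntl 0.661, 1.89 and 1.82. Young was lowest in each of these, with a counting interval that did not meet those of the aged libraries. Between the aged libraries the intervals met for Per1 and Per2 and did not meet for Dbp. Counts of Nr1d1 per count of Arntl were 8.78 in young, 11.2 in EPA-deprived and 15.2 in EPA-fed, with counting intervals apart in all 3 libraries.

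**Figure D3:**
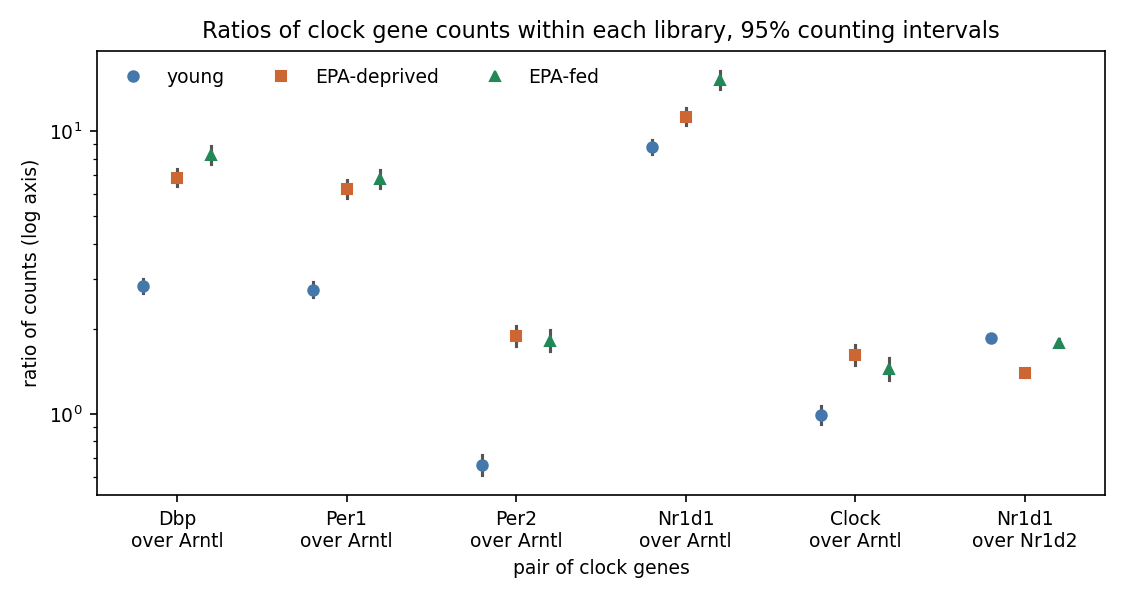
Ratio of recovered counts of 2 clock genes within each library (log axis), with 95% counting intervals as bars. The ratios of Dbp, Per1 and Per2 to Arntl are lowest in young, while Nr1d1 over Nr1d2 is lowest in EPA-deprived at 1.39.

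Levels between genes were compared per length, as CPM per kilobase of annotated exons. Nr1d1 was highest in every library, at 72.4, 57.2 and 71.2 CPM per kilobase in young, EPA-deprived and EPA-fed. Dbp was next at 23.5, 36.4 and 38.7, followed by Nr1d2 at 22.2, 23.4 and 22.6 and Per1 at 12.4, 17.3 and 17.2. Dbp and Nr1d2 were close in young and apart in the aged libraries. In the lower part of the order Arntl went from place 6 in young (3.39 CPM per kilobase) to place 8 in both aged libraries (2.11 and 1.86), and Per2 from place 7 (2.88) to place 5 (5.13 and 4.35). Per3 and Clock were neighbours in young at 1.84 and 1.80. Npas2 was last in each library at 0.427, 0.385 and 0.167.

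Other genes of the loop were taken from a list of 12, of which 10 passed the minimum of 1 CPM. In EPA-deprived against young, 1 of the 10 (Ciart) was at least 1.5-fold higher and 0 were at least 1.5-fold lower. The shares of all compared genes were 2.69% and 2.55%, and the median log2 change of the 10 was 0.06. In both other comparisons 0 of the 10 passed 1.5-fold in either direction, where 1.69% to 2.96% of all genes did. The medians were -0.02 in EPA-fed against EPA-deprived and 0.08 in EPA-fed against young. Ciart, a repressor of the activator, stood at 7.46 CPM in young, 11.9 in EPA-deprived and 11.5 in EPA-fed, low in young as the period genes were. Cry2, the second cryptochrome, stood at 50.1, 68.2 and 68.3 CPM in the same order, high in both aged libraries unlike Cry1. In recovered counts Ciart was 1.63-fold (1.44 to 1.85) of young in EPA-fed as well, and it missed 1.5-fold there only on the scale with 1 CPM added. The count ratios to young were 1.60-fold (1.41 to 1.81) for Ciart and 1.33-fold (1.26 to 1.39) for Cry2 in EPA-deprived.

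The relatives of Dbp differed among themselves. Tef stood at 223, 268 and 255 CPM in young, EPA-deprived and EPA-fed, while Hlf stood at 20.9, 16.8 and 14.5 CPM. Tef was higher in the aged libraries, as Dbp was, and Hlf was lower in both. Nfil3, which represses at the same D-box sequences, stood at 42.7, 34.6 and 37.2 CPM, lower in both aged libraries.

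Bhlhe41, a repressor that competes at E-boxes, stood at 64.1, 51.9 and 64.2 CPM, low in EPA-deprived alone as Nr1d1 was. Its relative Bhlhe40 stood at 119, 128 and 133 CPM and did not share that order. Rora, an activator at ROR elements, was nearly level at 116, 125 and 113 CPM. Timeless and Tipin, which act mainly at replication forks, stood at 2.79, 2.83 and 3.32 CPM and at 6.52, 5.55 and 4.48 CPM. Below the minimum were Arntl2 at 1.08, 1.06 and 0.850 CPM and Rorb at 0.279, 0.428 and 0.194 CPM.

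CACGTG was also found in the windows of Ciart (3 matches), Tef and Bhlhe41, TTATGTAA in that of Timeless and TAGGTCA in that of Nfil3, among 10 of the 12 with a window. Ciart and Tef, like Per1, were higher in EPA-deprived than in young, while Bhlhe41 was lower with the same letters and the difference of Cry1 was within counting error. Nfil3 and Arntl, with the letters TAGGTCA, were lower than young in both aged libraries. Of all 12966 compared genes, 6800 were lower than young in EPA-deprived and 7354 in EPA-fed. Per3 and Timeless, with TTATGTAA, had higher CPM in both, for Timeless within counting error. Whether the letters bear on these differences was not tested.

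**Figure D4:**
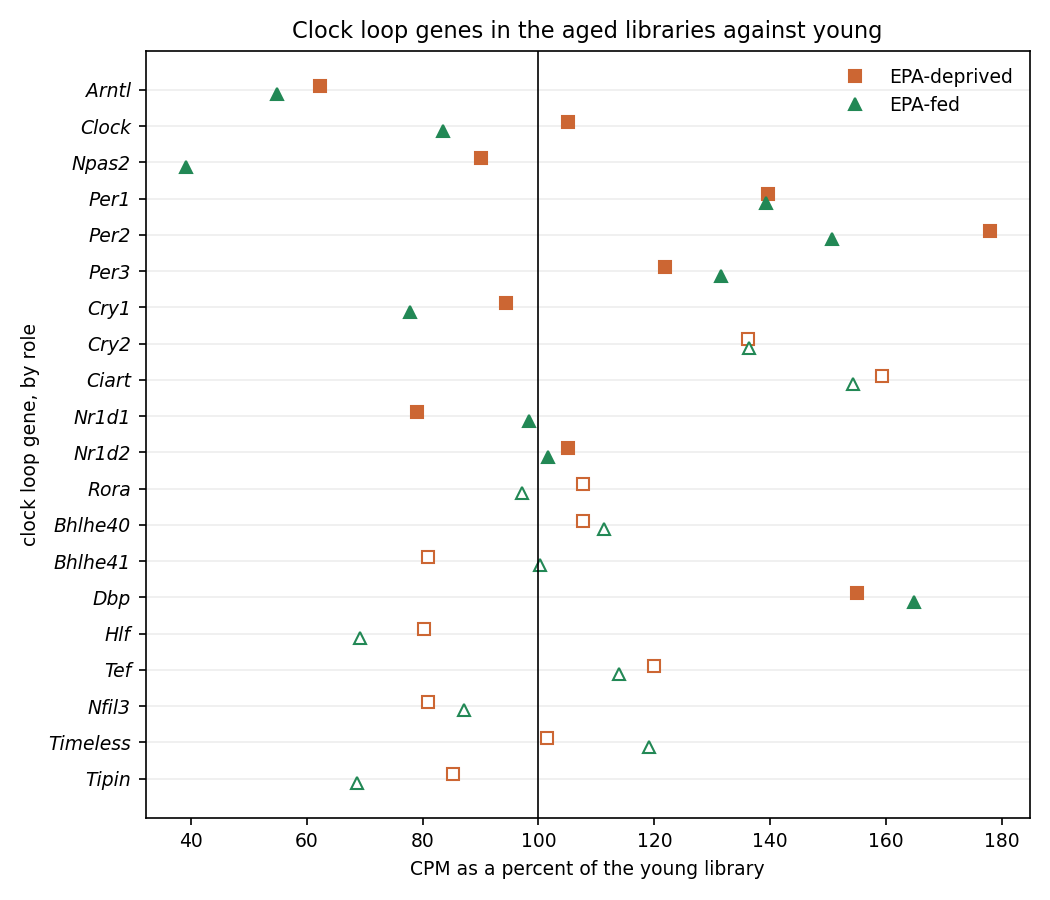
CPM in the EPA-deprived (squares) and EPA-fed (triangles) libraries as a percent of the young library for the 10 clock genes (filled) and 10 other loop genes (open), grouped by role. In both aged libraries the period genes, Cry2, Ciart, Dbp, Tef, Nr1d2, Bhlhe40 and Timeless lie right of the line at 100%. Arntl, Npas2, Cry1, Hlf, Nfil3, Tipin and Nr1d1 lie left of it in both. Against young, the difference was within counting error for Npas2, Cry1, Tipin and Timeless in EPA-deprived and for Nr1d1 and Timeless in EPA-fed. Timeless had 161 recovered counts in young and 160 in EPA-deprived.

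A list of clock protein modifiers, corepressors and related enzymes gave 0 of 15 compared genes past 1.5-fold in any comparison. Of all compared genes only 1.69% to 2.96% were past it, depending on comparison and direction. The list's medians were 0.00, -0.03 and 0.00 for EPA-deprived against young, EPA-fed against EPA-deprived and EPA-fed against young. The most abundant were Usp2, a deubiquitinase whose transcript itself cycles, at 221, 248 and 232 CPM in young, EPA-deprived and EPA-fed, and the casein kinase gene Csnk1a1 at 177, 172 and 156 CPM. Of 12 genes known to cycle in several mouse tissues, 1 was at least 1.5-fold higher in EPA-deprived than in young (2.69% of all genes). It was Wee1, a cell cycle kinase gene under E-box control, at 2.34, 4.61 and 3.03 CPM. In the other comparisons 0 of the 12 passed 1.5-fold (1.69% to 2.96% of all genes, depending on comparison and direction). These counts rest on the added 1 CPM: in recovered counts Wee1 was also 1.51-fold (1.24 to 1.85) lower in EPA-fed than in EPA-deprived, and the scarce Lonrf3, chosen after its values were seen, was 1.72-fold (1.15 to 2.60) of young in EPA-deprived and 1.79-fold (1.20 to 2.72) in EPA-fed.

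Of 12 muscle genes known to be under clock control, 1 was at least 1.5-fold higher than young in both aged libraries. That gene was Tbc1d1, a regulator of glucose uptake, at 43.7, 68.2 and 67.3 CPM, a pattern near that of Per1 and Dbp. Of all genes 2.69% were at least 1.5-fold higher than young in EPA-deprived and 2.4% in EPA-fed. The list's median log2 change was -0.22 in EPA-deprived against young. Below young were 8 of the 12 in EPA-deprived and 9 of the 12 in EPA-fed, beside 6800 and 7354 of all 12966 genes. On the scale of log2(CPM + 1) 0 of the 12 were at least 1.5-fold lower than young in EPA-deprived (2.55% of all genes) or EPA-fed (2.96%). In recovered counts Pdk4, a kinase gene that curbs glucose oxidation (chosen after its values were seen), was 1.54-fold (1.52 to 1.55) lower in EPA-deprived than in young.

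Other groups moved beside the clock genes. Genes of the immediate early response, with which Per1 shares its answer to cAMP signals, summed to 536 CPM in young, 744 in EPA-deprived and 649 in EPA-fed over 12 listed genes. Of the 12, 4 were at least 1.5-fold above young in EPA-deprived (2.69% of all genes) and 5 in EPA-fed (2.4%), with medians of 0.26 and 0.39. Fosb stood at 1.72, 6.44 and 5.60 CPM, Fos at 25.8, 71.0 and 52.5 CPM and Egr1 at 32.5, 61.1 and 56.6 CPM, low in young as Per1 was. They were named for the size of their changes, and not all of the list went with Per1. Below young were 2 of the 12 in EPA-deprived and 4 in EPA-fed, beside 6800 and 7354 of all 12966 genes. Nr4a3, at 12.9, 10.3 and 21.3 CPM, was the 1 gene of the list at least 1.5-fold higher in EPA-fed than in EPA-deprived. In that comparison 1.69% of all genes were so, and Per1 was level. Genes that answer glucocorticoids, Per1 among them, summed to 1104, 1047 and 1004 CPM over 10 genes, with medians of -0.03, -0.17 and -0.26 in the 3 comparisons. Of the 10, 2 were at least 1.5-fold below young in EPA-deprived (2.55% of all genes) and the same 2 in EPA-fed (2.96%). They were the metallothionein genes Mt1, at 50.1, 24.1 and 20.9 CPM, and Mt2, at 43.8, 19.6 and 16.1 CPM, opposite to Per1. In all, 6 of the 10 were below young in EPA-deprived and 7 in EPA-fed, beside 6800 and 7354 of all 12966 genes. Ddit4 stood at 38.2, 51.3 and 31.6 CPM. It was the 1 gene of the list at least 1.5-fold lower in EPA-fed than in EPA-deprived (1.91% of all genes). The part of either group in the level of Per1 was not tested.

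Markers of the cell types of muscle gave these sums over 6 genes each, in the order young, EPA-deprived and EPA-fed. Beside the counts past 1.5-fold stand 1.69% to 2.96% of all compared genes, depending on comparison and direction. Fibre markers, which check the labelled tissue, were abundant at 96371, 109344 and 109327 CPM, with 0 of 6 past 1.5-fold and the actin gene Acta1 and the myosin gene Myh4 as the most abundant. Endothelial markers summed to 359, 294 and 281 CPM, with 1 of 6 (Cldn5 at 24.1, 9.22 and 13.0 CPM) at least 1.5-fold below young in both aged libraries. Adipocyte markers summed to 167, 107 and 142 CPM, with Lep (2.46, 5.37 and 5.62 CPM) at least 1.5-fold above young in both aged libraries and Cfd (109.7, 59.1 and 85.3 CPM) below it in EPA-deprived. Smooth muscle and pericyte markers summed to 670, 666 and 579 CPM and macrophage markers to 152, 160 and 165 CPM, with 0 of 6 past 1.5-fold in either list. Rgs5 and Acta2 were the most abundant of the former, and Csf1r and C1qa of the latter. Fibroblast markers summed to 1340, 1263 and 1171 CPM, with 2 of 6 (Col3a1 and Col1a1) at least 1.5-fold below young in EPA-fed. Schwann cell markers summed to 161, 165 and 181 CPM, with 1 of 6 (Pmp22) at least 1.5-fold above young in both aged libraries. Of these sums the endothelial, adipocyte, smooth muscle and fibroblast ones were highest in young, but in EPA-deprived single markers went both ways. Below young in EPA-deprived were 4 of 6 endothelial, 5 of 6 adipocyte, 2 of 6 smooth muscle and 3 of 6 fibroblast markers. In EPA-fed they were 6, 4, 6 and 3 of 6, in the same order. Of all 12966 genes, 6800 were below young in EPA-deprived and 7354 in EPA-fed. In EPA-fed against EPA-deprived, 6 of 6 adipocyte and 6 of 6 Schwann cell markers were higher. All 6 smooth muscle and all 6 fibroblast markers were lower there. Lower too were 4 of 6 endothelial, 3 of 6 fibre and 3 of 6 macrophage markers. Of all 12966 genes, 5725 were higher and 7240 lower in that comparison. Brown fat markers summed to 1.74, 2.71 and 1.97 CPM, mostly from Dio2, and Ucp1, which defines that tissue, was listed at 0 in all 3. The part of these cell types in the clock genes' differences was not tested, and in bulk muscle fewer cells of a type and less RNA per cell cannot be told apart.

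Genes whose pair of changes lay nearest to that of a clock gene were sought among 9234 others with a mean of at least 5 CPM and a descriptive symbol (clone names and predicted genes left out), by the distance between log2 changes in EPA-deprived against young and in EPA-fed against EPA-deprived. With only 3 libraries such likeness is weak, and 12 genes lay within 0.1 of Arntl and 21 within 0.1 of Dbp. Nearest to Arntl were Ctla2a at 9.74, 5.79 and 4.96 CPM in young, EPA-deprived and EPA-fed, Egln3, an oxygen-sensing hydroxylase gene, at 88.6, 56.8 and 49.97 CPM, the water channel gene Aqp4 at 25.4, 16.0 and 14.4 CPM, Snrk and Tceal8. Nearest to Dbp were the kinase gene Camk2b at 107, 166 and 176 CPM, Cep295, Stk35, the myelin gene Pmp22 at 42.3, 64.6 and 69.0 CPM and Ces1d. None of these 10 is a clock gene of the lists used here.

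**Figure D5:**
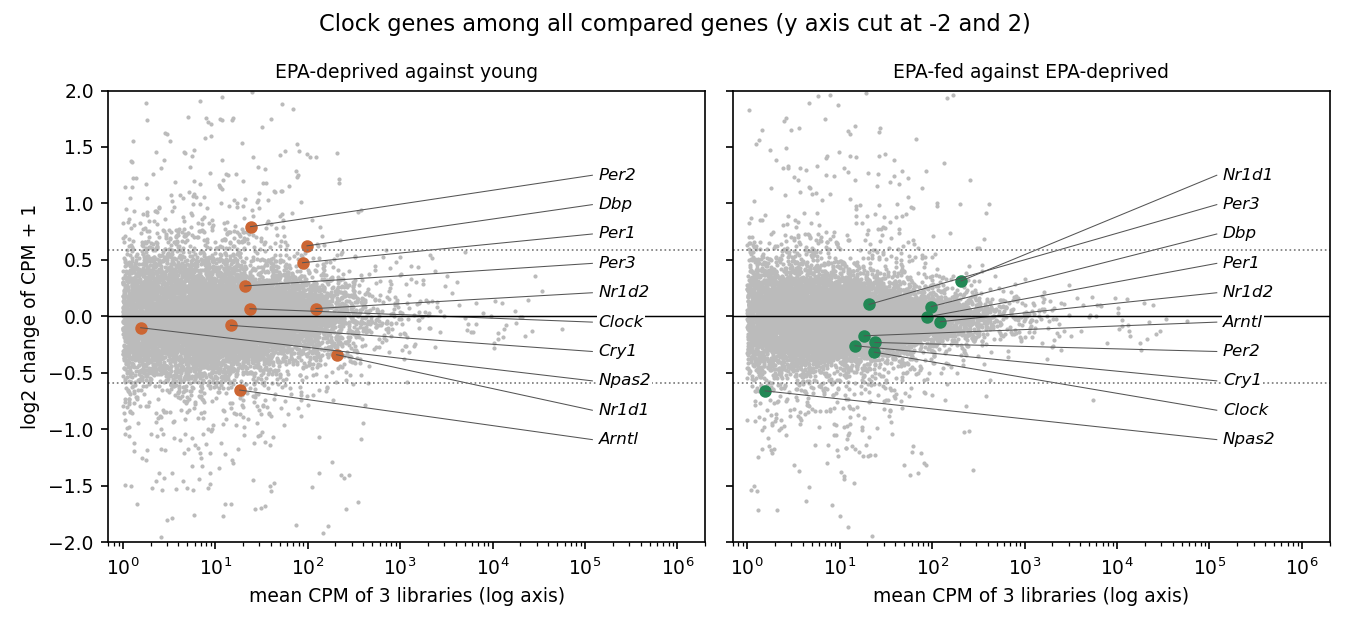
Log2 change of CPM + 1 against mean CPM over the 3 libraries (log axis) for 12966 compared genes (grey) and the 10 clock genes (coloured), with dotted lines at 1.5-fold and the y axis cut at -2 and 2. In EPA-deprived against young, Per2 and Dbp lie above and Arntl below the lines, and in EPA-fed against EPA-deprived only Npas2 of the 10 lies beyond them, at -0.66.

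Depth was alike between the libraries, at 57386394, 57622886 and 55969822 recovered counts for young, EPA-deprived and EPA-fed, and every clock gene had at least 46 counts in each library. The floor of 3 counts stood at 0.0523, 0.0521 and 0.0536 CPM. Across all compared genes the change went with exonic length, with Spearman's rho of 0.26 in EPA-deprived against young and -0.20 in EPA-fed against EPA-deprived. It went with GC content too in EPA-fed, with rho of 0.22 against EPA-deprived and 0.16 against young. Genes are not independent replicates, and no p is given. With the length trend subtracted, Arntl stood at -0.71, Per2 at 0.77 and Dbp at 0.65 (log2) in EPA-deprived against young, and Npas2 at -0.65 in EPA-fed against EPA-deprived.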

How the data were processed

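RNA of gastrocnemius and plantaris muscle was sequenced in 3 pooled libraries. R 3.5.0, StringTie 1.3.4d, HISAT2 2.1.0 and the build GRCm38 are named, per the submitters' processing notes; their settings are not given in the sources used here. The authors deposited CPM per gene. All CPM became whole counts (largest distance from whole 3.03e-09) when multiplied by 1 of 5 divisors, which differ from gene to gene, so deposited CPM lay -2.98% to 2.84% from CPM over a library's own total. CPM were used as deposited and summed by symbol, and 12966 genes, whose mean reached 1 CPM, were compared. A change is the difference of log2(CPM + 1), described at 1.5-fold and 2-fold. Ratios of recovered counts have exact Clopper-Pearson 95% intervals given the sum of both counts. With 1 library per group no test was possible. Exonic lengths and coordinates came from GENCODE M21 (GRCm38), promoter windows from RefSeq. Calculations used Python 3.11.15, pandas 2.3.3 and scipy 1.17.1, and recovery, changes and intervals were tested on simulated data.

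All clock genes and other loop genes were named. One gene is not reported here. From every other list, genes at least 1.5-fold apart in any comparison were named, at most 4 by size, or else the 2 most abundant, and the 5 genes nearest to Arntl and to Dbp. The genes and lists were chosen with earlier results of these data known. Alternatives were other pseudocounts, filters, scalings and divisors, and subtraction of trends with exonic length and GC content.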

Additional observations from a re-analysis of the deposited data

How the results depend on the processing

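Every count and median over the clock genes was recomputed under 11 alternatives, 2 of them (subtraction of the trend with exonic length or with GC content in 20 bins) chosen after seeing the data. With a pseudocount of 0.1 CPM, 1 gene (Npas2) reached 2-fold in EPA-fed against EPA-deprived and 1 in EPA-fed against young, and 2 genes (Dbp and Per2) were at least 1.5-fold higher in EPA-fed than in young; the latter count was also 2 with the median of ratios, with the trimmed mean of log ratios and with recovered counts scaled by library total. With a pseudocount of 5 CPM, 0 genes were at least 1.5-fold lower in EPA-deprived than in young, 0 in EPA-fed than in EPA-deprived and 1 in EPA-fed than in young. With a mean of at least 5 CPM, which leaves out Npas2, 0 genes were at least 1.5-fold lower in EPA-fed than in EPA-deprived and 1 in EPA-fed than in young. Of 327 values of single clock genes, 11 had another sign than reported, all for Clock in EPA-deprived against young, Nr1d1 in EPA-fed against young, or Nr1d2 and Per1 in EPA-fed against EPA-deprived, where the reported change was at most 0.07 in size. No gene past 1.5-fold changed sign. Arntl ranged from -0.71 to -0.55 and Per2 from 0.68 to 0.83 in EPA-deprived against young. No library could be left out, and no paired analysis was possible because each group has 1 library. Counts limit Npas2 most.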
